A study of Mus musculus with 6 samples.

Results

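Chemokine ligands of splenic cells were described here: Ccl3, Ccl4, Ccl5, Ccl6, Ccl9, Xcl1, Cxcl2, Cxcl16 and Ccl22, 9 of the 32285 genes listed in the files. They were chosen by name, as ligands that splenic lymphoid or myeloid cells can make, and each was measured in 7 classes of cells. The cells came from spleens of C57BL/6 mice, labelled WT, that were 6 weeks old at the start and were fed for 7 weeks. Mice received either MCDHFD, a model of metabolic dysfunction-associated steatohepatitis that the sample titles shorten to MCD, or ND, with 3 libraries each. The series is titled on splenic CD8 T cells and liver fibrosis. Its labels do not say whether a library is 1 animal, so p-values measure the spread between libraries.

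Chemokines are small secreted proteins that form gradients and bind G protein-coupled receptors on leukocytes, which then migrate or arrest. Ccl3, Ccl4 and Ccl5 are inflammatory chemokines that NK cells and effector T cells release. Ccl6 and Ccl9 are ligands of Ccr1 known from rodents and made by myeloid cells. Xcl1 is the lymphotactin of NK and CD8 T cells, and its receptor Xcr1 marks cross-presenting dendritic cells (cDC1). Cxcl2 attracts neutrophils through Cxcr2, Cxcl16 is a membrane-anchored ligand of Cxcr6, and Ccl22 attracts regulatory T cells through Ccr4.

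Droplet-based 3' sequencing counted unique molecules (UMIs) per gene and cell. Barcodes with at least 1000 UMIs and at most 10% mitochondrial UMIs were kept, which left 31542 cells, with 3535 to 6625 per MCDHFD library and 3278 to 6548 per ND library. Total UMIs were 21259837 to 62238012 per MCDHFD library and 21956506 to 56714190 per ND library. MCDHFD replicate 3 and ND replicate 2 stood apart: their barcode lists were already filtered, another Cell Ranger version is named in their headers, and their median mitochondrial shares were 1.68% in MCDHFD replicate 3 and 0.569% in ND replicate 2, while the other 4 libraries had 3.73% to 3.96%. List form was therefore a term of the main models beside diet. Without it, over all 6 libraries, the 4 diet calls reported below were lost, as the adjusted p given beside each one shows. Pairs of libraries shared at most 18 cell barcodes.

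Classes were gated on marker UMIs. CD8 T cells carried Cd3e and Cd8b1, CD4 T cells Cd3e and Cd4, and NK cells Ncr1 without Cd3e. B cells had at least 2 UMIs of Cd79a, and monocytes and macrophages (mono/mac) carried Csf1r. Neutrophils had Csf3r and at least 5 UMIs of S100a8, and dendritic cells (DC) Flt3 and at least 3 UMIs of H2-Aa. A cell can meet several gates, and 63.3% to 69.6% of the cells in the DC gate did, so the DC level in particular includes cells of other gates. NK cells numbered 37 to 253 per MCDHFD library and 77 to 198 per ND library. DC numbered 92 to 238 per MCDHFD library and 109 to 152 per ND library. Levels are given in CPM, the UMIs of a gene scaled to all UMIs of the class in a library. In such sums, fewer cells that make a chemokine and less RNA per cell cannot be told apart, so the share of cells with a UMI is given too. For these shares each cell was thinned to 1000 UMIs, so that depth does not set them.

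The classes differed more than the diets for most members. In every one of the 6 libraries Ccl3, Ccl4, Ccl5 and Xcl1 were highest in NK cells among the 7 classes, Ccl9 in mono/mac cells, Cxcl2 in neutrophils and Cxcl16 in DC. Ccl6 was highest in neutrophils in 5 of 6 libraries, and Ccl22 in DC in 5 of 6. The range of the leading class did not overlap that of the next class for Ccl3, Ccl4, Ccl5, Ccl9, Xcl1 and Cxcl16. The ranges overlapped for Ccl6 (neutrophils and mono/mac cells), Cxcl2 (neutrophils and mono/mac cells) and Ccl22.

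**Figure D1:**
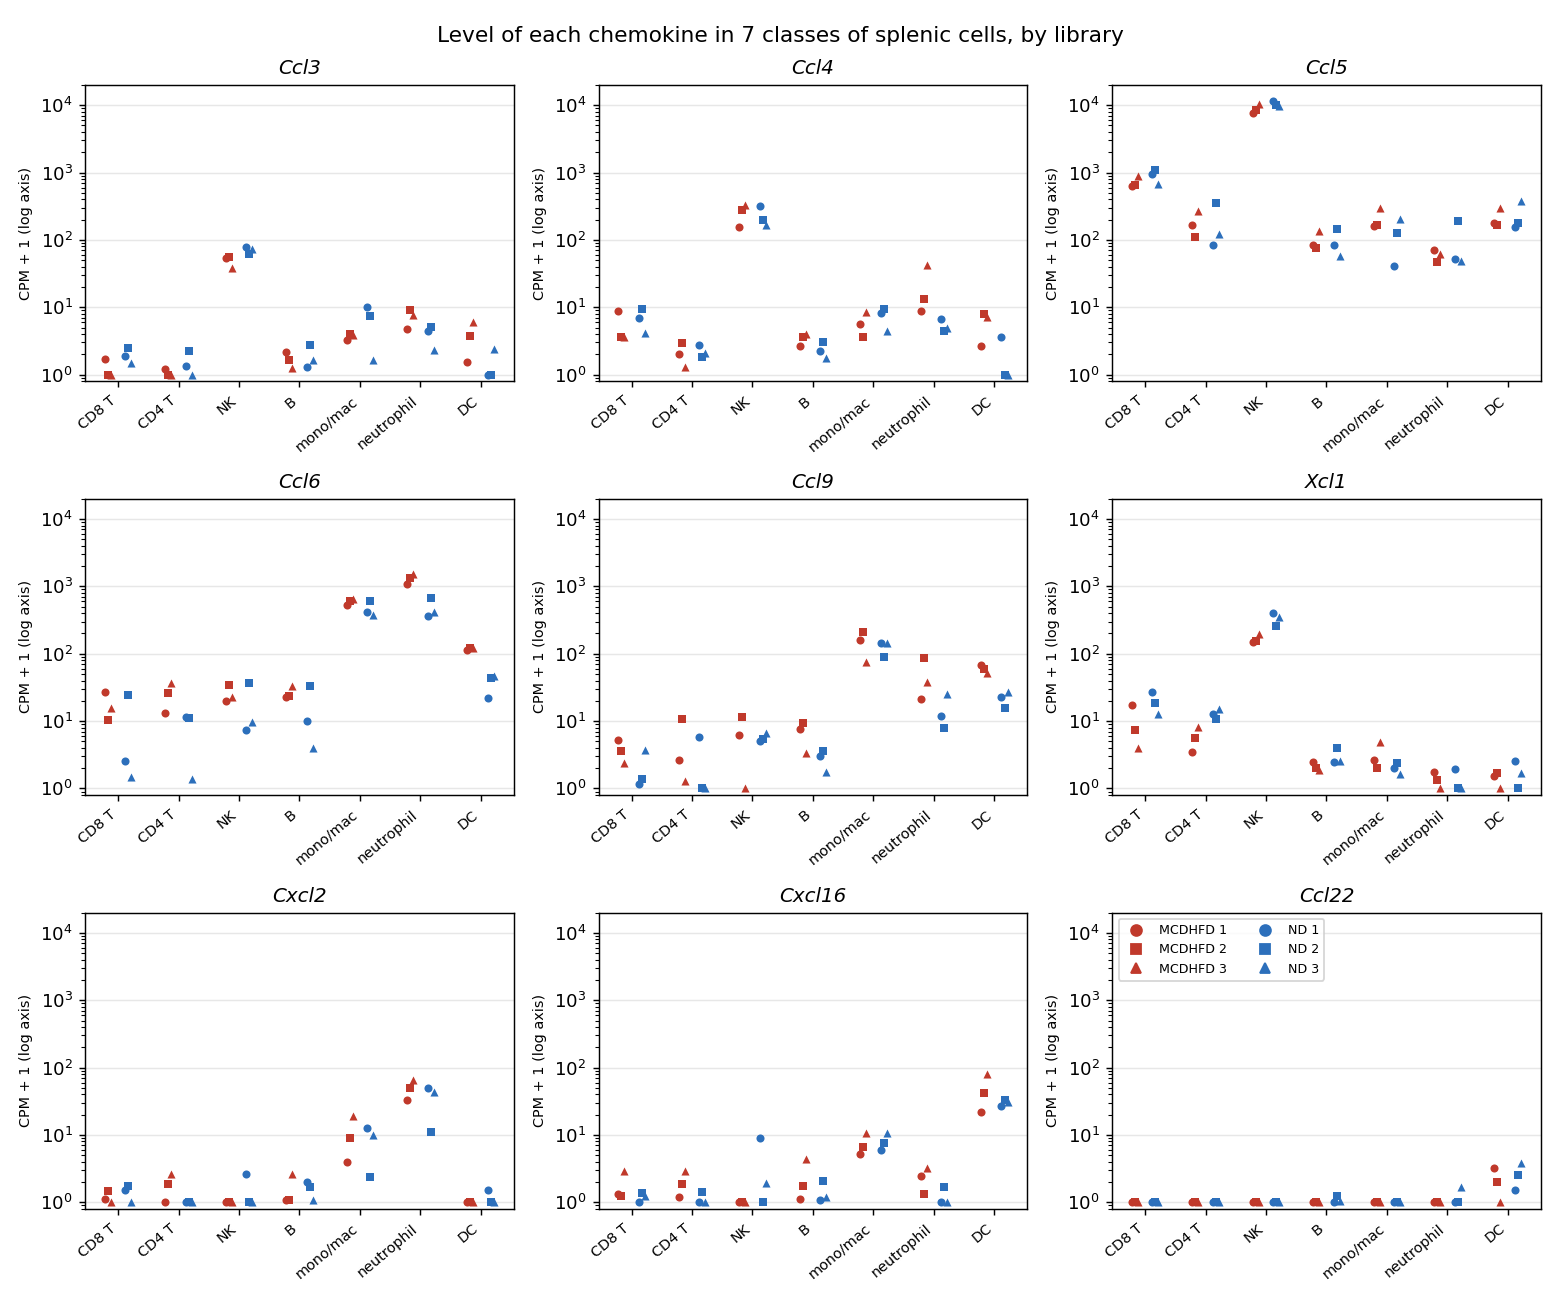
Level of each chemokine in the 7 classes. The y axis is CPM plus 1 on a log axis, each point is 1 library, and in each class the MCDHFD libraries (red) stand left of the ND libraries (blue). Xcl1 in NK cells and Ccl6 in neutrophils and DC show separated diets, and Ccl5 in NK cells lies between 7545 and 11461 CPM.

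In the test of diet, 37 of the 63 pairs of member and class had enough counts, and 4 were called: Xcl1 in NK cells, Ccl6 in neutrophils, and Ccl6 and Ccl9 in DC. The share of all tested genes called was 3.01% in NK cells, 7.32% in neutrophils and 1.4% in DC. In the other classes no member was called by edgeR, where 0.513% (CD8 T), 1.77% (CD4 T), 4.36% (B) and 0.959% (mono/mac) of all genes were. At an unadjusted p under 0.05 these classes held 2 of 5, 2 of 3, 4 of 8 and 0 of 7 tested members. Over all genes they held 1512 of 11102, 1732 of 10494, 3171 of 13798 and 1748 of 11158. Of these members DESeq2 called 1, in B cells, where it called 1138 of 13798 genes. Ccl22 was tested in no class. The diets did not overlap for 0 of 5 tested members in CD8 T cells and 1 of 8 in B cells (Xcl1), beside 8.45% and 12.2% of all genes.

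**Figure D2:**
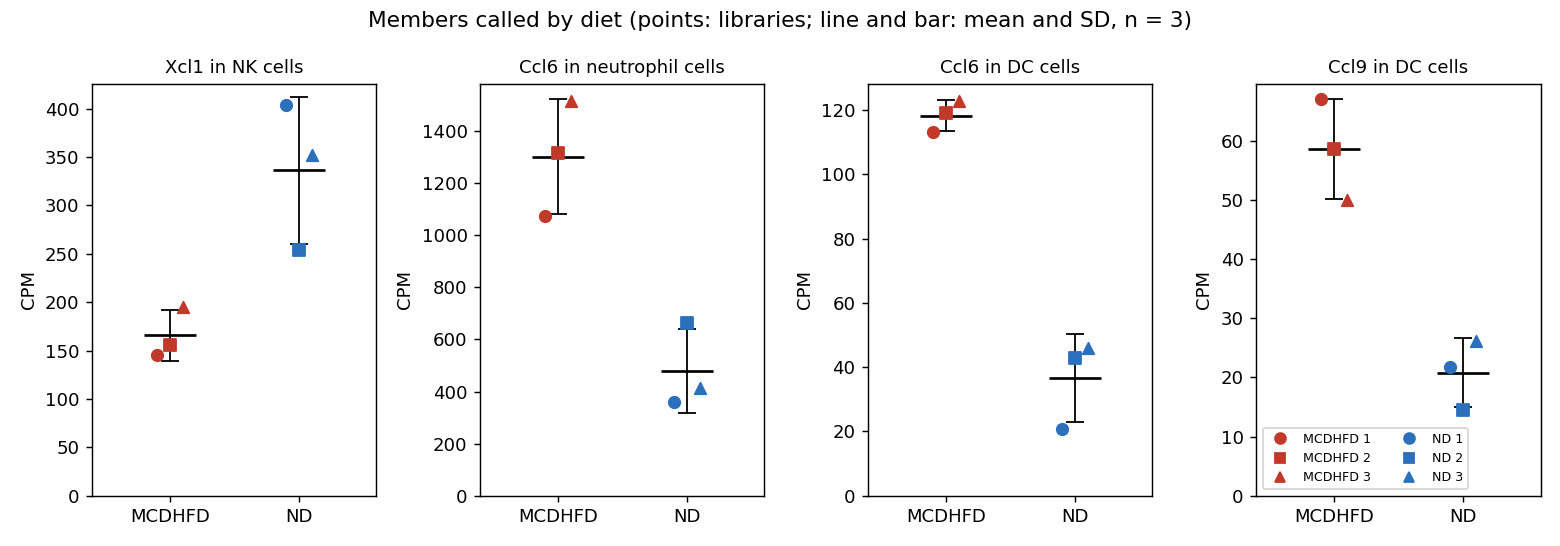
CPM of the 4 pairs of member and class called by diet. Points are libraries, the line is the mean and the bar the SD (n = 3 per diet). Ccl6 in DC averaged 118 CPM with MCDHFD and 36.5 CPM with ND. The 4 pairs have no overlap between the diets, as 14.1% (NK), 21.1% (neutrophils) and 10.9% (DC) of all tested genes.

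Xcl1, the lymphotactin gene, lies on chromosome 1 at 164931644-164935527 on the minus strand (GRCm38, GENCODE M21). The antisense gene Gm20743 overlaps it, and whether the counting used strand is not given in the sources used here. Promoter sequences are from the RefSeq-based table for GRCm38.p6, which held 6 of the 9 members. Here the 250 bases before the start of Xcl1 (chr1:164935523-164935772, minus strand, 5' to 3') are shown because its level differed by diet, with AGGAAG, the core letters of ETS factor motifs on either strand, in capitals.
Xcl1: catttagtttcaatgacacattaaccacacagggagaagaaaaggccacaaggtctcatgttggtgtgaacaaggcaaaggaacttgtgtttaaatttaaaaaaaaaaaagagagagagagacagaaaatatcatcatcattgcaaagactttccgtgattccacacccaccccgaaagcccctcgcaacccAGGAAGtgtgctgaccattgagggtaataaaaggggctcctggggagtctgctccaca
The motif was found 1 time in this window, and 29.5% of all promoters of the table hold it. Motifs were picked after the windows were seen, and a match is not a binding site.

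Xcl1 in NK cells was 146, 156 and 195 CPM in the MCDHFD libraries, against 403, 254 and 352 CPM in the ND libraries. Every MCDHFD library lay below every ND library, as 14.1% of all tested genes in NK cells did in 1 direction or the other. Xcl1 fell by 1.21 on the log2 scale with MCDHFD (SE 0.177, adjusted p = 0.00521, edgeR with list form). With diet alone as the model the adjusted p was 0.355. Between the libraries with unfiltered lists the log2 difference was -1.41, and between the 2 libraries with filtered lists -0.42. Leaving out MCDHFD replicate 1 or MCDHFD replicate 2 gave adjusted p = 0.113 and 0.127.

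The share of NK cells with an Xcl1 UMI at 1000 UMIs was 7.93% ± 2.50 with MCDHFD and 17.1% ± 2.04 with ND (SD, n = 3 each; exact permutation p = 0.1, the smallest 3 against 3 libraries allow; 0.333 adjusted over 20 pairs). Unthinned, it was 24.8%, 22.9% and 37.8% with MCDHFD and 30.3%, 39.0% and 33.3% with ND, which overlapped. In B cells, which should lack Xcl1, at most 0.346% had a thinned UMI, below the NK shares. NK cells that met no other gate held Xcl1 at 162, 182 and 231 CPM with MCDHFD and at 514, 314 and 443 CPM with ND.

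Cd27 marks the less mature NK cells, and their Xcl1 level was above that of NK cells with Itgam and without Cd27 in each of the 6 libraries. NK cells with Cd27 had 263, 311 and 159 CPM with MCDHFD, against 671, 359 and 513 CPM with ND, and the diets did not overlap. This gate had as few as 9 cells in a library and was not tested. The Cd27 cells made up 35.7%, 29.2% and 24.3% of the NK gate with MCDHFD and 26.3%, 23.4% and 28.4% with ND, which overlapped. NK cells with Itgam and without Cd27 held 57.4, 59.5 and 94.7 CPM with MCDHFD and 38.2, 162 and 245 CPM with ND, also overlapping.

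Markers of other cell types differed by diet in the NK gate. Of 6 neutrophil markers, S100a8, Ngp and Camp were lower in the NK gate with MCDHFD, and the summed level was 260 to 961 CPM with MCDHFD and 224 to 13261 CPM with ND, high in ND replicates 1 and 2. Of 4 erythroid markers, Car2 was lower (-1.37), and the summed level was 92.2 to 1512 CPM with MCDHFD and 171 to 897 CPM with ND. None of the 6 NK markers was called. The part of these transcripts in the Xcl1 result was not tested. In the neutrophil gate Xcl1 was at most 0.939 CPM. In barcodes with 1 to 100 UMIs, which hold free RNA, Xcl1 was 15.3 and 18.4 CPM in the MCDHFD libraries and 37.9 and 29.1 CPM in the ND libraries with unfiltered lists. Those levels are below the NK level in each of the 4 libraries.

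In CD8 T cells Xcl1 was 16.1, 6.37 and 3.02 CPM with MCDHFD, against 25.7, 17.3 and 11.8 CPM with ND. The diets overlapped, and the log2 difference of -1.23 was not called (adjusted p = 0.262). Il2rb, a subunit of the receptor for IL-2 and IL-15, marks memory and effector CD8 T cells. In CD8 T cells with Il2rb, a gate tested after the data had been seen, Xcl1 was 11.7, 10.4 and 5.77 CPM with MCDHFD and 44.0, 37.4 and 21.8 CPM with ND. There it fell by 1.91 on the log2 scale (SE 0.277, adjusted p = 0.0107, edgeR with list form), beside 1.15% of genes called in that gate. Adjusted p was 0.887 with diet alone. In the barcodes that hold free RNA, Xcl1 was 15.3 and 18.4 CPM with MCDHFD and 37.9 and 29.1 CPM with ND. The level of the Il2rb gate was below these in MCDHFD replicates 1 and 2 and ND replicate 3. In ND replicate 1 it was above. The part of free RNA in the result of this gate was not tested. CD8 T cells without Il2rb had 21.3, 1.53 and 1.41 CPM with MCDHFD and 7.74, 0.675 and 1.96 CPM with ND, and 1 cell held 65 of the 85 UMIs in MCDHFD replicate 1. Red pulp macrophage markers moved with the CD8 T gate: Vcam1 (3.50), C1qa (2.82), C1qb (3.27) and Hmox1 (2.73), 4 of 4 tested, were higher, and the summed level was 19.2 to 155 CPM with MCDHFD and 2.71 to 15.1 CPM with ND. Their part in the Xcl1 result was not tested. Red pulp macrophages held at most 5.97 CPM of Xcl1. Lower Xcl1 in CD8 T cells was already known from earlier results of these data, so it is not independent support.

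CD4 T cells held 2.52, 4.59 and 7.22 CPM of Xcl1 with MCDHFD and 11.7, 9.89 and 14.2 CPM with ND. The diets did not overlap (10.2% of all genes tested in CD4 T cells), but the difference of -1.39 was not called (adjusted p = 0.0893). It was called in the 4 libraries with unfiltered lists (-1.89, adjusted p = 0.0139), beside 607 of 10734 genes. In each of these 4 libraries the CD4 T level was below that of the barcodes that hold free RNA. Xcl1 in those barcodes was 15.3 and 18.4 CPM with MCDHFD and 37.9 and 29.1 CPM with ND. The part of free RNA in the CD4 T result was not tested. The gamma delta T cells, gated on Trdc, numbered 6 to 32 per library and held 19.4, 20.4 and 0 CPM with MCDHFD, where 0 counts in MCDHFD replicate 3 allow up to 95.1 CPM. With ND they held 184, 53.5 and 123 CPM. The diet effect on Xcl1 was not called as different between CD8 T and NK cells (0.17, SE 0.418, adjusted p = 0.944), nor between CD8 T and CD4 T cells (0.14, adjusted p = 0.981), beside 0.113% and 0.582% of genes called.

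**Figure D3:**
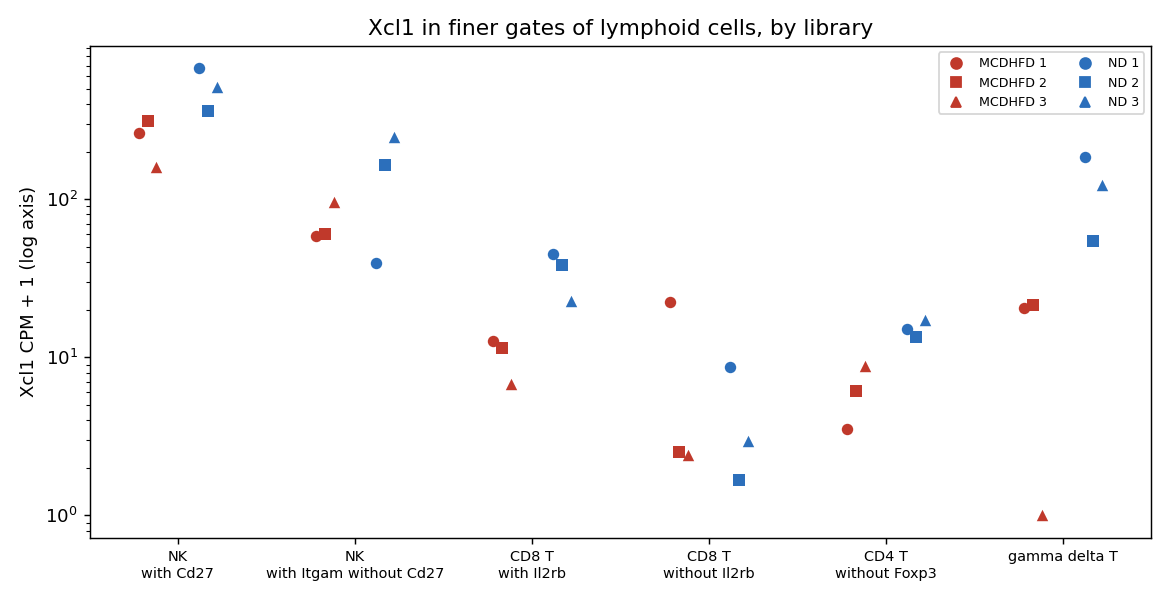
Xcl1 in finer gates of lymphoid cells. The y axis is CPM plus 1 on a log axis, points are libraries, with MCDHFD (red) left of ND (blue). NK cells with Cd27 carry the most Xcl1, and in CD8 T cells with Il2rb the 3 MCDHFD libraries (5.77 to 11.7 CPM) lie below the ND libraries (21.8 to 44.0 CPM).

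Ccl3 and Ccl4 (MIP-1 alpha and beta) are neighbours on chromosome 11, at 83647844-83649355 on the minus strand and 83662584-83664683 on the plus strand. Their starts face each other across 13228 bases that hold no other protein-coding gene. Ccl3 in NK cells was 53.8, 54.5 and 37.9 CPM with MCDHFD, against 76.8, 60.1 and 72.4 CPM with ND. The diets did not overlap (14.1% of all genes tested in NK cells), and the log2 difference of -0.57 (SE 0.177) was not called (adjusted p = 0.0895). It was called in cells that met no other gate (-0.73, adjusted p = 0.0267), where 408 of 7834 genes were called. In the 4 libraries with unfiltered lists it was called too (-0.61, adjusted p = 0.0438), beside 924 of 8945 genes.

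Ccl4 in NK cells was 154, 277 and 331 CPM with MCDHFD and 319, 196 and 163 CPM with ND, overlapping, with a log2 difference of -0.03 (adjusted p = 0.974). In neutrophils Ccl4 was 7.77, 12.4 and 41.0 CPM with MCDHFD and 5.63, 3.41 and 3.97 CPM with ND, without overlap (21.1% of all genes tested there) and without a call (1.51, adjusted p = 0.0967). In MCDHFD replicate 3, 1 cell held 56.8% of the 37 Ccl4 UMIs of that class. The share of immature neutrophils, given with Ccl6, was lower in each MCDHFD library than in each ND library. In the neutrophils with under 5 UMIs of Camp plus Ngp, Ccl4 was 9.94, 13.2 and 51.1 CPM with MCDHFD and 14.8, 7.84 and 7.92 CPM with ND, which overlapped, and the log2 difference was 0.76 (adjusted p = 0.548).

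Basophils, gated on Ms4a2 and Cd200r3, had higher Ccl3 and Ccl4 levels than each of the other 16 finer gates in every library. They numbered 6, 5 and 1 with MCDHFD and 8, 6 and 4 with ND, and each of these cells held a Ccl3 UMI. Ccl3 was 857, 1561 and 22201 CPM with MCDHFD, against 1694, 1626 and 1749 CPM with ND. The highest value is 1 cell, with 137 Ccl3 UMIs and 287 Ccl4 UMIs. These few cells also carried Ccl6 at 3074 to 12968 CPM and Ccl9 at 810 to 3114 CPM.

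Ccl5 (RANTES) lies on chromosome 11 at 83525778-83530518 on the minus strand. Its level in NK cells was 7545, 8490 and 10522 CPM with MCDHFD, against 11461, 10238 and 9780 CPM with ND, which overlapped, and it was not called (-0.33, adjusted p = 0.405). Without the libraries with filtered lists the 4 others gave -0.56 (adjusted p = 0.00272), where 924 of 8945 genes were called. At 1000 UMIs, 90.4% ± 6.11 of NK cells with MCDHFD and 90.8% ± 0.678 with ND had a Ccl5 UMI (SD, n = 3 each; exact permutation p = 1). In B cells the share was 1.70% to 2.77%, which marks the background.

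In CD8 T cells Ccl5 was 624, 647 and 884 CPM with MCDHFD and 963, 1093 and 681 CPM with ND, and the log2 difference of -0.43 was not called (adjusted p = 0.252). The cells with Il2rb carried it: 1106, 1161 and 1982 CPM with MCDHFD and 1526, 2210 and 1302 CPM with ND. DC gated on Ccr7 and Fscn1, the markers of mature migratory DC, held 1259, 1685 and 2866 CPM with MCDHFD and 2285, 1845 and 2674 CPM with ND, in 4 to 10 cells per library. Of the NK cells with an Xcl1 UMI, 93.3% to 100% had a Ccl5 UMI in the 5 libraries with at least 20 such cells.

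Ccl6 and Ccl9, the Ccr1 ligands, are neighbours on the minus strand of chromosome 11, at 83587882-83593087 and 83572919-83578636, with 9245 bases and no protein-coding gene between them. The plus-strand gene E230016K23Rik overlaps Ccl6. Both genes were called in DC, so the 250 bases before each start are shown (chr11:83593088-83593337 and chr11:83578637-83578886, minus strand, 5' to 3'). Letters of the ETS core, the AP-1 motif and the TATA box are in capitals.
Ccl6: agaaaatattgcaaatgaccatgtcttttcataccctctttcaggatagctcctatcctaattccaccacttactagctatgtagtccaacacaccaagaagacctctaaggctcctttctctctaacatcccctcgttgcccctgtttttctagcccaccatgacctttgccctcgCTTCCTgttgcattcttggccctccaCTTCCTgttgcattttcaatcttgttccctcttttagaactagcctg
Ccl9: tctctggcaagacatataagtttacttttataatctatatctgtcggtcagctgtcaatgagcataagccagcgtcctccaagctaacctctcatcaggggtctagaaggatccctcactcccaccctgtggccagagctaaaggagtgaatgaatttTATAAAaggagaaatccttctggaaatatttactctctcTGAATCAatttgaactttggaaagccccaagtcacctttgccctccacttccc
The Ccl6 window held the ETS core 2 times and neither of the other motifs. The Ccl9 window held the TATA box letters (TATAAA, gene strand) 1 time, 92 bases before the start, and 7.59% of all promoters hold them. It held the AP-1 motif 1 time (either strand), 53 bases before the start, and 6.75% of all promoters hold it. The AP-1 letters searched were TGANTCA.

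Ccl6 in neutrophils was 1076, 1316 and 1515 CPM with MCDHFD, against 360, 662 and 413 CPM with ND. Every MCDHFD library lay above every ND library, and 21.1% of all tested genes in neutrophils had no overlap in 1 direction or the other. It rose by 1.31 on the log2 scale (SE 0.187, adjusted p = 0.0165, edgeR with list form). The log2 difference was 1.45 between libraries with unfiltered lists and 1.03 between those with filtered lists. With diet alone adjusted p was 0.10, and without ND replicate 1 or ND replicate 3 it was 0.123 and 0.0894. The share of neutrophils with a Ccl6 UMI at 1000 UMIs was 61.4% ± 3.88 with MCDHFD and 42.2% ± 4.67 with ND (SD, n = 3 each; exact permutation p = 0.1, the smallest possible; 0.333 adjusted). B cells had 0.158% to 1.79%. The unthinned neutrophil share was 85.8%, 87.6% and 80.3% with MCDHFD and 60.6%, 65.7% and 67.5% with ND.

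Maturity moved with this result. Camp and Ngp are secondary granule genes of immature neutrophils, and cells with 5 or more UMIs of them made up 6.86%, 2.22% and 13.1% of the gate with MCDHFD and 37.2%, 31.4% and 24.4% with ND. Of 6 neutrophil markers, S100a8, S100a9, Ngp and Camp were lower with MCDHFD, and the summed level of the 6 was 105740 to 159475 CPM with MCDHFD and 226386 to 269835 CPM with ND. Immature cells held 23.7, 430 and 123 CPM of Ccl6 with MCDHFD, in 10 to 26 cells per library, and 18.2, 14.5 and 18.6 CPM with ND. Of 3 classical monocyte markers, Ccr2 was higher (3.75) and Ly6c2 (-1.28) and Chil3 (-1.61) were lower, with a summed level of 974 to 1949 CPM with MCDHFD and 2842 to 3846 CPM with ND. Of 6 mono/mac markers, Csf1r (1.18) and Cd68 (1.48) were higher and Lyz2 (-0.92) was lower. Hmox1 (1.10), 1 of 5 red pulp macrophage markers, and Hbb-bt (4.40), 1 of 4 erythroid markers, were higher. The part of these transcripts in the Ccl6 result was not tested. In the other neutrophils Ccl6 was 1370, 1368 and 1860 CPM with MCDHFD and 1054, 1504 and 805 CPM with ND, and the diets overlapped. There the log2 difference was 0.53 (adjusted p = 0.242), beside 0.145% of genes called.

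Ccl6 in mono/mac cells was 526, 612 and 639 CPM with MCDHFD, against 410, 612 and 376 CPM with ND, and was not called (0.36, adjusted p = 0.323). Classical monocytes, with Ly6c2 and Ccr2, held 838, 780 and 1088 CPM with MCDHFD and 450, 704 and 643 CPM with ND, without overlap, at 0.61 (adjusted p = 0.113), beside 2.4% of genes called. The diet effect on Ccl6 was smaller in mono/mac cells than in neutrophils by 0.98 on the log2 scale (SE 0.146, adjusted p = 0.0284), beside 1.21% of genes. Leaving out MCDHFD replicate 1, 2 or 3 gave adjusted p = 0.0523, 0.0932 and 0.145, and leaving out ND replicate 1 or 2 gave 0.0705 and 0.105. The 2 gates share 52 to 191 cells per MCDHFD library and 51 to 118 per ND library.

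Ccl6 in DC was 113, 119 and 123 CPM with MCDHFD and 20.8, 42.9 and 45.9 CPM with ND, without overlap, as 10.9% of genes there. It rose by 1.71 on the log2 scale (SE 0.231, adjusted p = 0.00718, edgeR with list form; 0.228 with diet alone). The log2 difference was 1.84 between libraries with unfiltered lists and 1.55 between those with filtered lists. Without MCDHFD replicate 3 adjusted p was 0.0651, and with the 4 unfiltered lists it was 0.0702. The thinned share was 8.92% ± 1.87 with MCDHFD and 2.36% ± 0.389 with ND (SD, n = 3 each; exact permutation p = 0.1, the smallest possible).

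Ccl9 in DC was 67.1, 58.7 and 50.1 CPM with MCDHFD, against 21.8, 14.6 and 26.1 CPM with ND. It rose by 1.45 (SE 0.191, adjusted p = 0.00689, edgeR with list form; 0.228 with diet alone). The differences within list forms were 1.32 (unfiltered) and 1.80 (filtered). With the 4 unfiltered lists adjusted p was 0.0617. Adjusted p was 0.0629 without MCDHFD replicate 3 and 0.0680 without ND replicate 1. The thinned share was 4.09% ± 0.725 with MCDHFD and 1.22% ± 0.653 with ND (SD, n = 3 each; exact permutation p = 0.1, the smallest possible).

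Markers of several other cell types differed by diet in the DC gate. Cells of it that also carried Csf1r numbered 34 of 160, 57 of 238 and 22 of 92 with MCDHFD, and 19 of 152, 18 of 109 and 21 of 128 with ND. Of 6 mono/mac markers 1 was higher (Lyz2, 1.24), and of 2 tested classical monocyte markers 1 (Ccr2, 1.16). The summed mono/mac markers were 590 to 1226 CPM with MCDHFD and 382 to 510 CPM with ND. Lower with MCDHFD were the plasma cell markers Jchain (-1.93) and Mzb1 (-1.27), 2 of 3 tested, with a summed level of 304 to 598 CPM with MCDHFD and 371 to 2407 CPM with ND. Also lower were Gzma (-2.53), the 1 NK marker tested, Iglc2 (-0.83), 1 of 5 B cell markers, Cd4 (-0.76), 1 of 3 CD4 T markers tested, and Cox6a2 (-1.04), 1 of 3 pDC markers. The part of these transcripts in the Ccl6 and Ccl9 results was not tested. In DC that met no other gate Ccl6 was 82.5, 35.0 and 101 CPM with MCDHFD and 9.81, 33.6 and 29.1 CPM with ND, at 1.57 (adjusted p = 0.122). Ccl9 there was 38.7, 14.4 and 7.74 CPM with MCDHFD and 17.99, 9.89 and 5.83 CPM with ND, which overlapped, from 2 to 23 UMIs. The diet effect was not called as different between mono/mac cells and DC for Ccl6 (-1.32, adjusted p = 0.135) or Ccl9 (-1.20, adjusted p = 0.220), beside 0.131% of genes.

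The cDC2, DC with Cd209a or Clec4a4, held both genes above their level in the whole DC gate in every library. Ccl6 there was 199, 202 and 217 CPM with MCDHFD and 41.6, 61.5 and 74.8 CPM with ND, and rose by 1.78 (SE 0.232, adjusted p = 0.00264, edgeR with list form; 0.0663 with diet alone), beside 0.952% of genes. Ccl9 was 212, 142 and 116 CPM with MCDHFD and 59.7, 30.7 and 67.8 CPM with ND, and rose by 1.51 (SE 0.252, adjusted p = 0.0105; 0.297 with diet alone). In cDC1, with Clec9a or Xcr1, Ccl6 was 123, 55.0 and 152 CPM with MCDHFD and 41.1, 69.6 and 72.7 CPM with ND, overlapping. Low barcodes differed in the same direction: those with 1 to 100 UMIs held 120 and 148 CPM of Ccl6 with MCDHFD and 41.6 and 33.4 CPM with ND. The Ccl6 level of the whole DC gate was below these in MCDHFD replicates 1 and 2 and ND replicate 1. In ND replicate 3 it was above. Ccl9 in low barcodes was 36.5 and 50.9 CPM with MCDHFD and 17.2 and 15.9 CPM with ND. Those levels are below the Ccl9 level of the whole DC gate in each of these libraries. In B cells of all 6 libraries Ccl6 was 22.05, 22.6 and 32.2 CPM with MCDHFD and 9.09, 31.8 and 3.02 CPM with ND. The part of free RNA in the Ccl6 and Ccl9 results in DC was not tested.

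**Figure D4:**
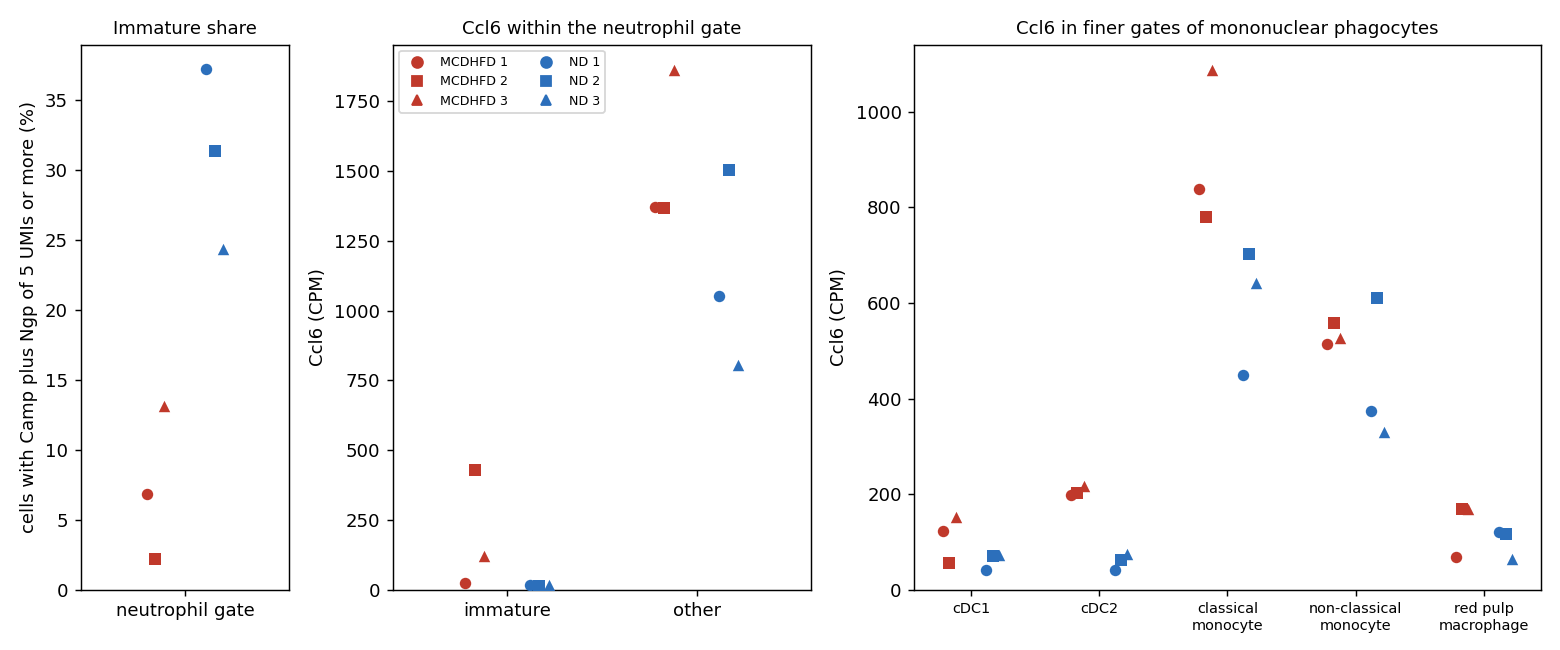
Left, percent of neutrophil-gate cells with 5 or more UMIs of Camp plus Ngp. Middle and right, CPM of Ccl6 in finer gates of neutrophils, DC, monocytes and macrophages, where points are libraries, with MCDHFD (red) left of ND (blue). Ccl6 in cDC2 is 199 to 217 CPM with MCDHFD and 41.6 to 74.8 CPM with ND, while in the other neutrophils the diets overlap.

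In lymphoid gates Ccl6 was low. CD4 T cells held 12.4, 24.9 and 36.1 CPM with MCDHFD, against 10.6, 10.3 and 0.363 CPM with ND. The diets did not overlap (10.2% of all genes tested there), and Ccl6 was not called (1.75, adjusted p = 0.126). In CD4 T cells without Foxp3 it was 13.6, 21.8 and 38.8 CPM with MCDHFD and 4.28, 12.9 and 0.418 CPM with ND, called at 2.21 (adjusted p = 0.0289; 0.9995 with diet alone), beside 1.41% of genes. In CD4 T cells that met no other gate it was 3.30, 2.93 and 3.26 CPM with MCDHFD and 0.904, 0 and 0.439 CPM with ND, from 7 to 11 UMIs with MCDHFD and 0 to 2 with ND. The levels of the whole CD4 T gate are below those of barcodes with 1 to 100 UMIs in the same 4 libraries, as are the NK levels of 19.2, 33.8 and 21.7 CPM with MCDHFD and 6.40, 35.6 and 8.58 CPM with ND. In NK cells the difference was 1.15 (adjusted p = 0.143), and NK cells that met no other gate held 2 to 4 Ccl6 UMIs with MCDHFD and 0 to 4 with ND.

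Ccl9 in mono/mac cells was 159, 212 and 74.9 CPM with MCDHFD and 143, 88.7 and 144 CPM with ND, overlapping (0.16, adjusted p = 0.706). Classical monocytes were the class highest in Ccl9 after basophils, at 363, 404 and 204 CPM with MCDHFD and 321, 172 and 352 CPM with ND. Ccl9 in neutrophils was 20.3, 86.9 and 37.7 CPM with MCDHFD and 10.9, 6.82 and 24.5 CPM with ND, and was not called (1.70, adjusted p = 0.0885). DESeq2 called it (1.74, adjusted p = 0.0213), beside 788 of 9271 genes. In neutrophils that met no other gate Ccl9 was 7.32, 5.31 and 18.9 CPM with MCDHFD, from 6 to 10 UMIs. With ND it was 4.05, 2.65 and 14.5 CPM there, from 2 to 15 UMIs, and the diets overlapped. The share of immature neutrophils, given with Ccl6, also differed by diet. In the neutrophils with under 5 UMIs of Camp plus Ngp the log2 difference of Ccl9 was 1.23 (adjusted p = 0.366, edgeR with list form). The thinned share of neutrophils with Ccl9 was 2.30% ± 0.859 with MCDHFD and 0.352% ± 0.320 with ND (SD, n = 3 each; exact permutation p = 0.1, the smallest possible; 0.333 adjusted). Of the mono/mac cells with a Ccl9 UMI, 93.4% to 97.0% with MCDHFD and 85.3% to 90.9% with ND also had a Ccl6 UMI.

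Cxcl2, the Cxcr2 ligand, lies on chromosome 5 at 90903871-90905938 on the plus strand. In neutrophils it was 31.8, 48.6 and 65.3 CPM with MCDHFD and 49.6, 10.2 and 42.3 CPM with ND, overlapping (0.29, adjusted p = 0.740). Without the libraries with filtered lists the sign turned (-0.39, adjusted p = 0.289). It came from few cells: in 3.96% to 6.57% of neutrophils with MCDHFD and 1.18% to 5.59% with ND at 1000 UMIs. In the immature neutrophils the MCDHFD libraries held no Cxcl2 UMI in 10 to 26 cells, which allows up to 5.07, 17.9 and 16.7 CPM.

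Cxcl16, the Cxcr6 ligand, lies on chromosome 11 at 70453983-70459984 on the minus strand and overlaps Zmynd15 on the plus strand. In DC it was 21.1, 41.3 and 80.2 CPM with MCDHFD, against 25.6, 32.2 and 30.3 CPM with ND, overlapping, and was not called (0.54, adjusted p = 0.474). The thinned share was 2.50%, 3.36% and 8.70% with MCDHFD and 1.97%, 1.83% and 2.34% with ND, without overlap, and MCDHFD replicate 3 held the highest value. Ccr7 DC held 303, 562 and 542 CPM with MCDHFD and 362, 114 and 187 CPM with ND, and cDC1 held 53.0, 59.6 and 161 CPM with MCDHFD and 61.6, 67.3 and 76.2 CPM with ND.

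Ccl22, on chromosome 8 at 94745590-94751699 on the plus strand, had 14 UMIs in the DC gate over all 6 libraries, 4 in B cells, 1 in neutrophils and 0 in the other 4 classes. These counts were too low for a test. Over all cells kept, the libraries held 10, 6 and 5 Ccl22 UMIs with MCDHFD and 1, 20 and 10 with ND. Of these, 60%, 50% and 100% with MCDHFD and 0%, 75% and 50% with ND lay in cells outside all classes. In Ccr7 DC, Ccl22 was 93.3 and 25.1 CPM in MCDHFD replicates 1 and 2. In MCDHFD replicate 3 it had 0 UMIs in 5 cells, which allow up to 77.5 CPM. With ND it was 15.8, 25.3 and 82.9 CPM there. Ccl22 is a known product of mature DC, and depth here limits what can be said of its level.

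**Figure D5:**
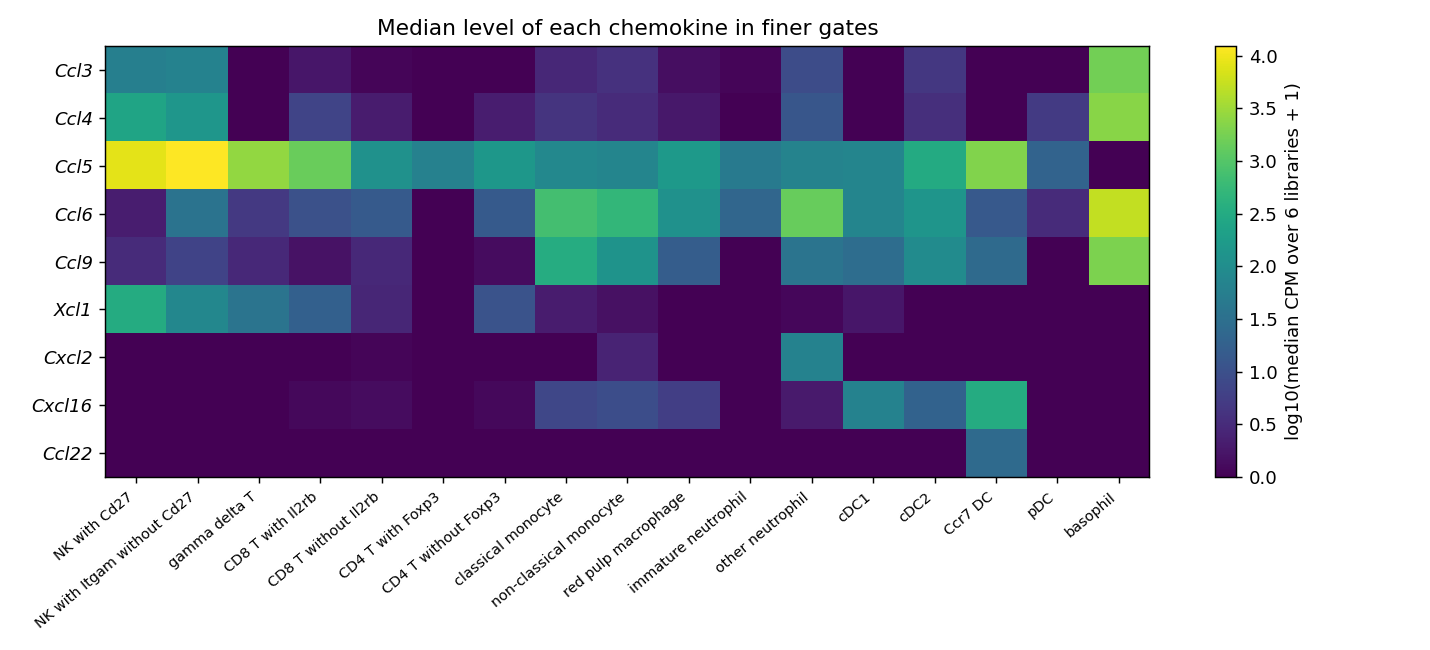
Median CPM over the 6 libraries of each chemokine (rows) in finer gates (columns), as log10(CPM + 1), with colours comparable within a row only. Ccl3 and Ccl4 stand out in NK cells and basophils, and Ccl9 in basophils and monocytes. Ccl6 stands out in basophils, neutrophils other than immature ones and monocytes. Cxcl2 does so in neutrophils other than immature ones and Cxcl16 in Ccr7 DC.

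The receptors and shedding enzymes of these ligands, 13 genes, were described beside them. Between 4 and 9 of them were tested per class, and 2 were called in all. Cxcr6, the receptor for Cxcl16, was 14.3, 16.4 and 27.2 CPM in CD4 T cells with MCDHFD and 35.99, 62.2 and 45.04 CPM with ND, and fell by 1.33 (adjusted p = 0.00498). Ccr1, the receptor for Ccl6 and Ccl9, was 434, 482 and 223 CPM in neutrophils with MCDHFD, against 218, 140 and 268 CPM with ND, and rose by 0.66 (adjusted p = 0.0481), although the diets overlap. Of 30 other chemokine ligands 2 to 6 were tested per class: Ccl25 rose in B cells by 0.36 (adjusted p = 0.0473) and Cklf fell in neutrophils by 0.94 (adjusted p = 0.0280). With diet alone 0 genes were called in CD4 T or B cells and 11 in neutrophils. Whether Ccr1 or Cklf is among these 11 is not given here. With list form, 9 genes were called in neutrophils without ND replicate 1 and 13 without ND replicate 3. The median log2 difference of the tested receptors and enzymes was 0.57 in neutrophils and -0.075 in CD4 T cells, against -0.00030 and -0.0045 over all genes of these classes. Cxcr2, which binds Cxcl2, was 613 to 1444 CPM in neutrophils with MCDHFD and 388 to 694 CPM with ND, which overlapped. Immature cells made up 2.22% to 13.1% of the neutrophil gate with MCDHFD and 24.4% to 37.2% with ND. The part of this share in the neutrophil values of Ccr1, Cklf, Cxcr2 and the median was not tested. Xcr1, which binds Xcl1, was 33.9 to 62.6 CPM in DC with MCDHFD and 37.3 to 56.0 CPM with ND.

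Genes most alike to each member over the 42 sums of library and class were compared by Pearson r of log2(CPM + 1), as description. The sums share libraries, depths and cells. For Ccl6 they were Ifitm2 (r = 0.97), Wfdc17 (0.97) and Sirpb1c (0.97), and for Ccl9 Gpr35 (0.94), Gpr141 (0.93) and Abca9 (0.92). For Xcl1 they were Gm43647, AW112010 and Prf1 (0.94 each), for Ccl5 Tbx21, Ctla2b and Gzmb (0.93 each). For Ccl3 they were Spry2 (0.90), Calm2 (0.88) and Dapk2 (0.88), and for Ccl4 Spry2, Dapk2 (0.90 each) and Cma1 (0.88). Cxcl2 was most like Rab44 (0.94), Arg2 and Mrgpra2b (0.93 each), Cxcl16 like Clec9a, Flt3 (0.90 each; Flt3 defines the DC gate) and Apol7c (0.89), and Ccl22 like Grm8 (0.77), 9530059O14Rik (0.73) and Mreg (0.72).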

How the data were processed

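Raw UMI counts per gene and cell barcode were deposited for 6 libraries, 3 per diet; the values are whole numbers, which the authors had not normalized. Per the labels' protocols, the libraries were made with a 10x Genomics 3' kit and sequenced on a NovaSeq. Per the submitters' processing notes, mm10, Cell Ranger 9.1.0 and Seurat 4.3.0 were used; per the file headers, 4 matrices with all barcodes came from Cell Ranger 9.0.1, and the 2 with filtered lists from 7.2.0. Doublets were not called; cells meeting a single gate served as an alternative. The totals per library set the precision, and intervals cover counting error only.

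Counts were summed per library and gate and tested in edgeR 4.0.16 (quasi-likelihood, TMM, genes passing filterByExpr, R 4.3.3) with list form and diet as terms, Benjamini-Hochberg over all genes of a class, and a call at adjusted p under 0.05. SE is the log2 fold change divided by the square root of F. Differences between classes were tested as the interaction of class and diet, with library and class by list form as terms. Shares, for the 20 pairs with a mean of at least 1%, used a two-sided exact permutation test. Alternatives used DESeq2 1.42.0 and others given later. All 9 members are named in every class, with up to 4 called genes per list and class and, among genes averaging at least 10 CPM, the 3 most alike genes per member. Finer gates were tested after the data had been seen. Coordinates are GENCODE M21 (GRCm38), the build of mm10. Tests were tried on simulated data. The level of 1 receptor is not reported here. Members, gates and lists were chosen with earlier results of these data known.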

Additional observations from a re-analysis of the deposited data

Results flagged for a closer look

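The diet difference of Ccl6 in mono/mac cells, minus that in neutrophils, was -0.98 on the log2 scale (SE 0.146, adjusted p = 0.0284, edgeR interaction of class and diet). Ccl6 was 526, 612 and 639 CPM in mono/mac cells with MCDHFD and 410, 612 and 376 CPM with ND. In neutrophils it was 1076, 1316 and 1515 CPM with MCDHFD and 360, 662 and 413 CPM with ND. The call was lost when any library other than ND replicate 3 was left out, with adjusted p up to 0.145.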

How the results depend on the processing

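The number of genes called per class was 57 (CD8 T), 186 (CD4 T), 263 (NK), 602 (B), 107 (mono/mac), 679 (neutrophil) and 135 (DC). With diet alone it was 1 in CD8 T cells, 11 in neutrophils and 0 in the other 5 classes by edgeR, where 482 (CD4 T), 714 (NK), 846 (B), 686 (mono/mac) and 543 (DC) genes had an unadjusted p under 0.05. DESeq2, with list form, called 256, 189, 1138, 351 and 128 there. Over all 6 libraries the calls therefore rest on the list form term, and the cause was not tested. With the 4 unfiltered lists, where diet was the only term, the counts were 231, 607, 924, 2728, 21, 1142 and 22 in the same order of classes. Without a filter they were 36 (CD8 T), 664 (NK), 952 (B), 1062 (mono/mac), 1780 (neutrophil) and 664 (DC). In cells meeting a single gate they were 187, 339, 408, 69, 1835 and 51 in CD8 T, CD4 T, NK, mono/mac, neutrophil and DC. DESeq2 gave 180 in CD8 T cells. Of the finer gates, chosen after seeing the data, CD8 T cells with Il2rb gave 111, classical monocytes 207, neutrophils with Camp plus Ngp under 5 UMIs 12 and cDC2 56. Leaving out 1 library gave 21 to 221 (CD8 T), 23 to 577 (CD4 T), 15 to 834 (NK), 12 to 2584 (B), 14 to 145 (mono/mac), 9 to 1160 (neutrophil) and 15 to 180 (DC).

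The interactions called 12 genes (CD8 T against NK), 68 (CD8 T against CD4 T), 138 (mono/mac against neutrophil) and 15 (mono/mac against DC). Without a filter they called 171, 123, 626 and 270, and in single-gate cells 44, 117, 415 and 7. Without the class by list form term they called 7 (CD8 T against NK) and 32 (CD8 T against CD4 T). Leaving out 1 library gave 8 to 41, 16 to 114, 0 to 217 and 14 to 41. Of the 20 share pairs, 6 had no overlap between the diets with all libraries, and 6 to 10 with 1 library left out. Non-overlap arises more easily with fewer libraries, and its frequency in shares over all genes was not computed.

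With the replicate block the classes had 133, 663, 470, 1451, 948, 1094 and 386 calls. Deviations of libraries with the same number correlated at 0.132 to 0.573 for replicate 1, at -0.657 to -0.324 for replicate 2 and at -0.631 to -0.292 for replicate 3. Replicates 2 and 3 each set a library with a filtered list against one with an unfiltered list. The 2 libraries with filtered lists, MCDHFD replicate 3 and ND replicate 2, correlated at 0.435 to 0.752. These values follow list form, so they cannot decide whether the numbers pair the libraries.

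Signs of members that were not called turned in some settings. Ccl5 in CD4 T cells gave -0.051 in single-gate cells, -0.092 to 0.45 with 1 library left out. Ccl4 in NK cells gave 0.055 with diet alone, 0.031 with DESeq2, -0.28 to 0.47 with 1 library left out. Ccl5 in B cells gave -0.024 with diet alone, -0.014 without a filter, -0.28 in single-gate cells, -0.17 to 0.17 with 1 library left out. Ccl9 in mono/mac cells gave -0.040 to 0.34 with 1 library left out. Ccl5 in neutrophils gave 0.16 in single-gate cells, 0.052 with unfiltered lists, -0.92 to 0.058 with 1 library left out. Cxcl2 in neutrophils gave -0.39 with unfiltered lists, -0.47 in neutrophils with Camp plus Ngp under 5 UMIs, -0.39 to 0.73 with 1 library left out. Ccl5 in DC gave 0.30 in cDC2, -0.71 to 0.38 with 1 library left out. Ccl5 in CD8 T against NK gave 0.083 in single-gate cells, 0.0013 without a filter, -0.13 to 0.10 with 1 library left out. Xcl1 in CD8 T against NK gave -0.71 to 0.57 with 1 library left out. Xcl1 in CD8 T against CD4 T gave -0.86 to 0.98 with 1 library left out.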
